A study of Mus musculus with 30 samples.

Results

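The STAT family is described here through 6 mouse genes taken by symbol, Stat2, Stat3, Stat4, Stat5a, Stat5b and Stat6, in CD4 T cells sorted from spleen. They are 6 of 55573 genes counted in 22 QuantSeq libraries and 6 of 34030 genes counted in 8 RNA-seq libraries. All 6 passed the filter on low counts in both kits.

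All mice were C57BL/6 of 8 weeks, and the study compared follicular helper (TFH) cells, type 2 helper (TH2) cells and cells with features of both, which the labels call TFH2. QuantSeq, which reads the 3' ends of transcripts, covered Bcl6KO cells (n = 2), which are CD4+hCD2+ cells of Bcl6f/fCd4cre x OTII Tg mice. Cd4cre deletes the floxed gene in cells that have used the Cd4 promoter. It covered Il4KO cells (n = 2), which are CD4+ cells of Il4-/- x OTII Tg mice. TFH2 cells came from IL-4BacTg x OTII Tg mice, with 2 libraries at each of CXCR5lo, CXCR5int and CXCR5hi. TFH cells came from OTII Tg mice, with 3 libraries at CXCR5lo, 2 at CXCR5int and 3 at CXCR5hi. Both TFH kinds were sorted as CD4+CD45.2+ and PD1+ at the CXCR5 level named. QuantSeq TH2 cells (n = 4) were CD4+hCD2+ cells of the IL-4BacTg x OTII Tg cross. RNA-seq covered TFH CXCR5hi cells of OTII Tg mice (n = 2), TH2 cells (n = 2; CD4+hCD2+, IL-4BacTg mice) and CD4+CD62L+CD44-CD25- naive cells of wild type mice (n = 2). It also held a single library labelled TFH2 CXCR5hi and a single library labelled TH2, both from the IL-4BacTg x OTII Tg cross. OTII Tg mice carry a transgenic T cell receptor for an ovalbumin peptide. What the IL-4BacTg transgene expresses, and which allele supplies hCD2, is not stated in the labels. TFH, TH2 and naive groups therefore differ in genotype and gate as well as in cell type. The knockout groups differ from QuantSeq TH2 cells by more than the targeted gene. Neither label names the IL-4BacTg transgene, and that of Il4KO cells names no hCD2 gate. The labels name no animals, so a p-value here reflects only how much libraries of a group vary, and that variation may be technical.

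STAT proteins are transcription factors that wait in the cytoplasm. A cytokine bound to its receptor activates Janus kinases, which phosphorylate the receptor and then a STAT, and the phosphorylated STAT pairs and enters the nucleus. RNA levels say nothing of that phosphorylation. In helper T cells Stat2 serves type I interferon, Stat3 serves IL-6, IL-21 and IL-10, Stat4 serves IL-12, Stat5a and Stat5b serve IL-2 and IL-7, and Stat6 serves IL-4 and IL-13. Stat3 is known for promoting TFH and TH17 fates, Stat4 for TH1, Stat6 for TH2, and Stat5 proteins for opposing the TFH fate.

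On GRCm38, Stat6 spans chr10:127642986-127660957 on the + strand and Stat2 spans chr10:128270559-128292849 on the + strand. Stat5b (chr11:100780731-100850724, - strand), Stat5a (chr11:100859351-100885169, + strand) and Stat3 (chr11:100885098-100939540, - strand) stand side by side, and Stat4 spans chr1:51987148-52107189 on the + strand. The annotated 3' ends of Stat5a and Stat3 overlap by 72 bases, and no source used here gives whether counting used strand, so reads there could be counted for either gene. The Stat5a transcript used here shares 20.8% of its 36-base windows with that of Stat5b, and RNA-seq reads from those stretches cannot be told apart. The last 500 bases of the 2 transcripts, from which QuantSeq tags come, share 0 such windows.

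Promoter windows from RefSeq (GRCm38.p6), 250 bases before to 50 after a start site, were found for all 6 genes, 9 windows in all. The following pair is shown because the longest stretch shared between any of the windows lies there. It runs over 65 aligned bases, with 58 identical (89.2%), and is in capitals. The Stat5a window is chr11:100860234-100860533 (+ strand) and the Stat5b window is chr11:100822521-100822820 (- strand), each read 5' to 3' along the gene.
Stat5a: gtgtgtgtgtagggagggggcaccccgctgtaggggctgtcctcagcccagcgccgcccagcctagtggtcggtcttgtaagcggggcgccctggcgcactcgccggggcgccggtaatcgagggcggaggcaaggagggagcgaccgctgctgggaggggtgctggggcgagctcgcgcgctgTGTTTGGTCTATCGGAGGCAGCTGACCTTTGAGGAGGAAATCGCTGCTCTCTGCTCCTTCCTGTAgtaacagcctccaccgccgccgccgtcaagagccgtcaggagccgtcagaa
Stat5b: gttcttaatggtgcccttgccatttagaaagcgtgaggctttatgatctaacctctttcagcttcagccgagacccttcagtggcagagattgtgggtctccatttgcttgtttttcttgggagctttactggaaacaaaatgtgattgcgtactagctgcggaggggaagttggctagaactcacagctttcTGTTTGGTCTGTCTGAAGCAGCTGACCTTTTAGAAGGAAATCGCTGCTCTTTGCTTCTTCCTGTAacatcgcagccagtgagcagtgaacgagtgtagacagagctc

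The windows were also searched on both strands for 3 motifs that STAT complexes are known to bind. The interferon-type motif GAAANNGAAA was in a Stat2 window (chr10:128270248-128270547, + strand), 222 to 213 bases before the start and on the opposite strand. It was also in a Stat4 window (chr1:52007990-52008289, + strand), 97 to 88 bases before the start. Of 32851 mouse windows, 3.44% hold it. The pair is shown because interferon targets are described below, with the match in capitals.
Stat2: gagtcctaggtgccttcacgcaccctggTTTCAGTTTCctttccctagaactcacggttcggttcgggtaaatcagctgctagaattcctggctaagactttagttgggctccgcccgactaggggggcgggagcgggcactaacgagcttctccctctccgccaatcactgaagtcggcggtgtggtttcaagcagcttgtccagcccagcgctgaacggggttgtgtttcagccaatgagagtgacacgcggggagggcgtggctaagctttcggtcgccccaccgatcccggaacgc
Stat4: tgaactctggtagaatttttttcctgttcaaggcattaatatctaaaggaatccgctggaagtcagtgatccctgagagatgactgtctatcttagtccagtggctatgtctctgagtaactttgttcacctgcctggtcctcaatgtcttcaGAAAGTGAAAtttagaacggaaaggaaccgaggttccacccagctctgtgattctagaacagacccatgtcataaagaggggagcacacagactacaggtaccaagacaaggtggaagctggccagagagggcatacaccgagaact
The motif TTCNNNGAA was in none of the 9 windows, against 8.30% of all windows. The motif TTCNNNNGAA was in the Stat2 window alone, 210 to 201 bases before the start and not overlapping the first match, against 6.95% of all windows. These are matches of letters and not measured binding.

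Levels are in CPM, a gene's counts scaled to a common total, which is that of a library's counts in QuantSeq and of the most counted transcript of each gene in RNA-seq. A QuantSeq library held 1834612 to 4442404 counts. An RNA-seq library held 36048137 to 107398014 counts over all transcripts, where a read can be counted on several. The RNA-seq totals used for CPM were 12561389 to 35635859 counts. The coefficient of variation between QuantSeq libraries of a group was 1.26 in the fit over 14383 genes, and 0.0879 in the RNA-seq fit over 17013 genes. Summed T cell markers were above all other lists in every group. The single RNA-seq library labelled TFH2 CXCR5hi held 255 CPM of the 6 TFH markers, against 2080 and 2090 CPM in TFH CXCR5hi, and 1030 CPM of the 5 TH2 markers. The single library labelled TH2 of the same cross held 802 CPM of the TFH markers and 510 CPM of the TH2 markers, where the replicated TH2 group held 236 and 281 CPM of the TFH markers and 1920 and 2240 CPM of the TH2 markers. Not all of its TH2 markers were low. It held 131 CPM of Il4, 24.2 CPM of Il5 and 68.4 CPM of Il13, against 22.2 and 24.0, 3.88 and 3.09, and 70.0 and 68.6 CPM in the replicated TH2 group. Its low sum came from Il4ra, at 28.5 CPM against 1220 and 1380 CPM, and Gata3, at 258 CPM against 598 and 768 CPM. The library labelled TFH2 CXCR5hi thus goes against its label by TFH markers and the library labelled TH2 by part of its markers, and both enter no comparison and are named as labelled. In RNA-seq, Ddx3y of the Y chromosome was at 81.5 and 86.3 CPM in TFH CXCR5hi libraries and at most 0.063 CPM in TH2 and naive libraries, so donor sex and cell type cannot be told apart in comparisons of TFH with either. In QuantSeq, TFH2 libraries held 205 to 1030 CPM of 8 myeloid markers and 424 to 1640 CPM of 6 erythroid markers. TFH libraries held 56.8 to 210 and 40.0 to 343 CPM of these lists, and TH2 libraries at most 6.96 and 39.4 CPM. The 7 B cell markers summed to 204 to 957 CPM in TFH2, 138 to 264 CPM in TFH and 60.5 to 147 CPM in TH2 libraries. Of these markers, Igkc was at 51.2 to 617 CPM in TFH2, 22.4 to 65.4 CPM in TFH and at most 0.675 CPM in TH2 libraries. Cd74 was at 16.6 to 95.3 CPM in TFH2 libraries, and at most 16.7 CPM in TFH and 9.78 CPM in TH2 libraries. Ms4a1 was at 0 in every one of these libraries. In RNA-seq the B cell list summed to 285 and 286 CPM in TFH CXCR5hi, 156 and 166 CPM in TH2 and 370 and 390 CPM in naive libraries, most of it Ighm. The single library labelled TH2 of the cross held 1490 CPM of B cell, 188 CPM of myeloid and 208 CPM of erythroid markers, with Xist at 738 and Ddx3y at 7.93 CPM. The single library labelled TFH2 CXCR5hi held 831, 25.4 and 11.9 CPM of these lists, with Xist at 0.955 and Ddx3y at 113 CPM.

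The question of the RNA-seq comparisons is how TFH and TH2 cells differ from each other and from naive cells. TFH CXCR5hi cells held more of all 6 Stat transcripts than TH2 cells did, by 1.29- to 2.37-fold, and TFH and TH2 libraries did not overlap for any of them. Against naive cells, 5 were higher and Stat6 was lower in TFH cells. In TH2 cells Stat4 was higher than in naive cells and Stat2, Stat5a, Stat5b and Stat6 were lower. A call is an adjusted p under 0.05 in edgeR's quasi-likelihood test over all 17013 genes. Such calls were common, so a call alone says little about these genes. Of all genes, 30.8% were called higher and 31.0% lower between TFH and TH2 cells, and 40.5% were higher with no overlap of libraries. Between TFH and naive cells 29.6% were higher and 27.6% lower, and between TH2 and naive cells 33.9% were higher and 31.9% lower. The median log2 ratio of the 6 genes was 0.79 for TFH over TH2 cells, against -0.01 over all genes. It was 0.495 for TFH over naive cells and -0.50 for TH2 over naive cells, against 0.00 over all genes in both. In bulk samples, fewer cells of a type and less RNA per cell cannot be told apart.

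**Figure D1:**
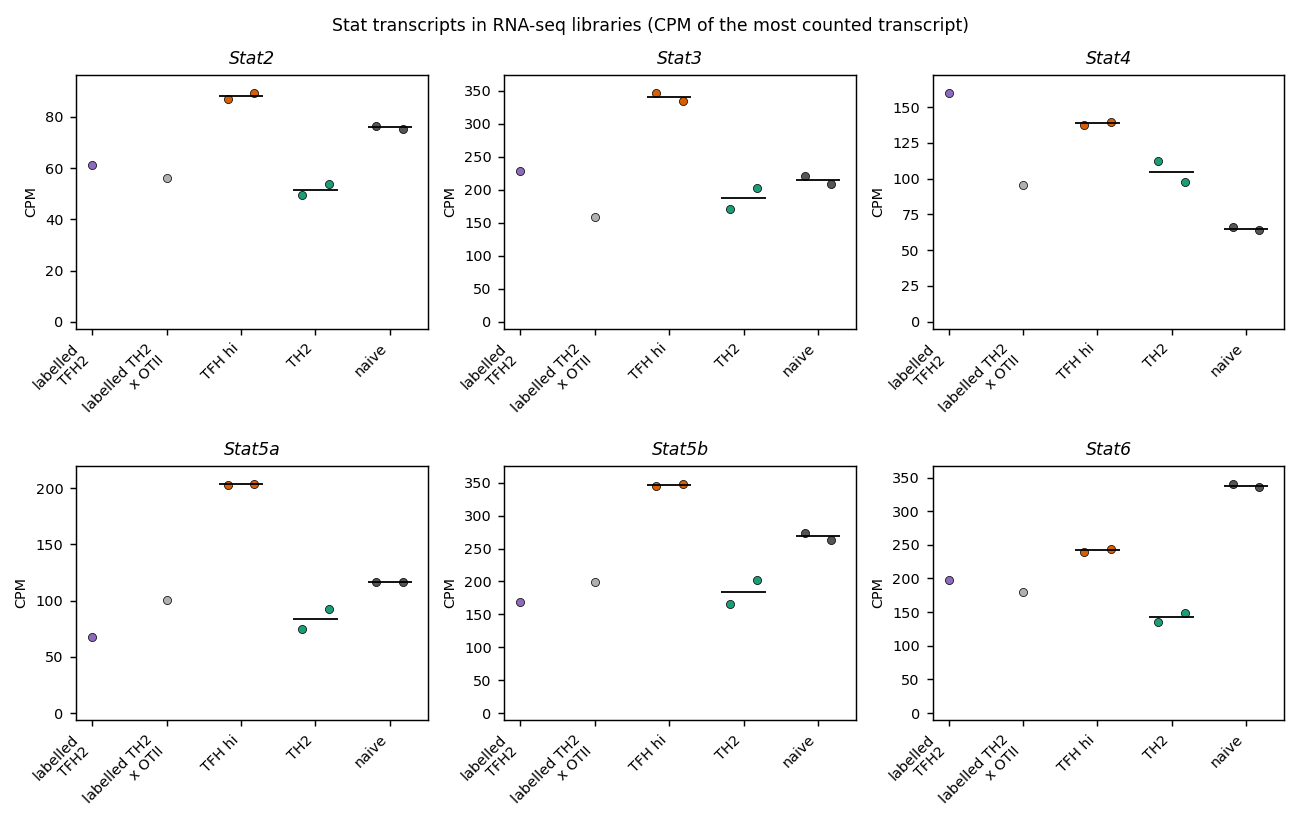
CPM of the most counted transcript of each Stat gene (vertical axes) in each RNA-seq library (points), by group (horizontal axes), with bars at group means. TFH CXCR5hi points lie above TH2 points in all 6 panels, and naive points are highest for Stat6 and lowest for Stat4.

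Stat2, the interferon STAT, had 87.0 and 89.3 CPM in TFH CXCR5hi, 49.3 and 53.7 CPM in TH2 and 76.6 and 75.3 CPM in naive libraries. TH2 libraries were lowest and TFH libraries highest, with no overlap among the 3 groups. The TFH over TH2 log2 ratio was 0.74 ± 0.07 (SE; adjusted p = 3.16e-06), and the TH2 over naive ratio was -0.54 ± 0.07 (adjusted p = 3.22e-05). The TFH over naive ratio was 0.19 ± 0.07 (adjusted p = 0.0309). That last call was lost with DESeq2 (adjusted p = 0.175), without the low-count filter (0.143), with transcripts summed (0.0595) and without TFH replicate 1 (0.205), TFH replicate 2 (0.27), naive replicate 1 (0.11) or naive replicate 2 (0.195). The libraries labelled TFH2 CXCR5hi and TH2 of the cross had 61.2 and 56.1 CPM.

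Stat3, which carries IL-6 and IL-21 signals, had 347 and 335.5 CPM in TFH CXCR5hi libraries, against 171 and 202.9 CPM in TH2 and 220.7 and 208.7 CPM in naive libraries. TFH libraries stood above the other groups, which were close to each other. It was 1.78-fold higher in TFH than TH2 cells (log2 0.83 ± 0.09, adjusted p = 6.54e-06) and 1.57-fold higher than in naive cells (log2 0.65 ± 0.09, adjusted p = 6.05e-05). TH2 and naive cells were not told apart (log2 -0.19 ± 0.09, adjusted p = 0.0782), although TH2 passed as lower without TH2 replicate 2 (log2 -0.34, adjusted p = 4.76e-05) and without the low-count filter (log2 -0.24, adjusted p = 0.0114). Without TH2 replicate 1 the log2 ratio was closer to 0, and over the alternatives the adjusted p ran up to 0.354. The libraries labelled TFH2 CXCR5hi and TH2 of the cross had 229 and 159 CPM.

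Stat4, which carries IL-12 signals, had 138 and 139.5 CPM in TFH CXCR5hi, 112 and 97.6 CPM in TH2 and 66.4 and 63.9 CPM in naive libraries. Both helper groups stood above naive cells, TFH by 2.1-fold (log2 1.07 ± 0.09, adjusted p = 1.24e-06) and TH2 by 1.63-fold (log2 0.70 ± 0.09, adjusted p = 2.53e-05). Between TFH and TH2 cells the ratio was 1.29-fold (log2 0.37 ± 0.09, adjusted p = 0.00322). The library labelled TFH2 CXCR5hi was highest of all 8 at 159.9 CPM, and the library labelled TH2 of the cross had 95.3 CPM.

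Stat5a, which with Stat5b carries IL-2 signals, had 203.3 and 203.7 CPM in TFH CXCR5hi libraries, against 75.1 and 92.4 CPM in TH2 and 116.5 and 116.2 CPM in naive libraries. The TFH over TH2 ratio was 2.37-fold (log2 1.25 ± 0.09, adjusted p = 2.15e-07). TFH cells were also above naive cells (log2 0.78 ± 0.08, adjusted p = 1.22e-05), and TH2 cells below them (log2 -0.46 ± 0.09, adjusted p = 0.000593). The libraries labelled TFH2 CXCR5hi and TH2 of the cross had 67.7 and 100.5 CPM, both far under the TFH libraries.

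Stat5b had 345 and 348 CPM in TFH CXCR5hi libraries, against 165 and 201.7 CPM in TH2 and 274 and 264 CPM in naive libraries. Its order of groups was that of Stat5a, with TFH highest and TH2 lowest. It was 1.84-fold higher in TFH than TH2 cells (log2 0.88 ± 0.09, adjusted p = 4.95e-06) and lower in TH2 than naive cells (log2 -0.54 ± 0.09, adjusted p = 0.000222). The TFH over naive ratio of 1.27-fold (log2 0.34 ± 0.09, adjusted p = 0.00569) was no longer called without TFH replicate 1 (adjusted p = 0.0684), TFH replicate 2 (0.0816) or naive replicate 2 (0.07). The libraries labelled TFH2 CXCR5hi and TH2 of the cross had 168 and 199 CPM. Because 20.8% of windows of the Stat5a transcript also occur in Stat5b, the 2 genes' RNA-seq values are not fully separate.

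Stat6, which carries IL-4 and IL-13 signals, had 239 and 244 CPM in TFH CXCR5hi libraries, against 135 and 149 CPM in TH2 and 340.2 and 335.5 CPM in naive libraries. Of the 6 genes it alone was highest in naive cells. It was 2.36-fold lower in TH2 than naive cells (log2 -1.24 ± 0.07, adjusted p = 5.27e-08) and 1.42-fold lower in TFH than naive cells (log2 -0.51 ± 0.07, adjusted p = 0.000109). TFH cells were above TH2 cells by 1.66-fold (log2 0.73 ± 0.07, adjusted p = 5.14e-06). The libraries labelled TFH2 CXCR5hi and TH2 of the cross had 198 and 181 CPM.

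**Figure D2:**
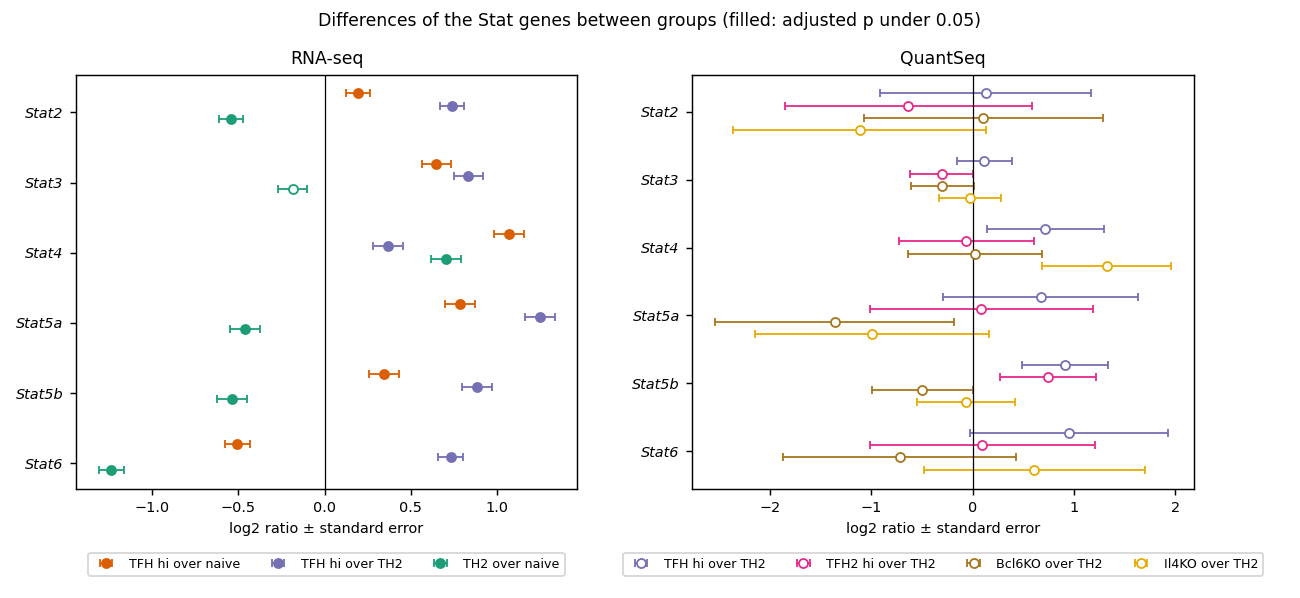
Log2 ratio ± standard error (horizontal axes) of each Stat gene (rows) in 3 RNA-seq comparisons (left) and 4 QuantSeq comparisons (right), colours marking the comparison and filled points an adjusted p under 0.05. In RNA-seq all TFH over TH2 points are filled and positive, and in QuantSeq no point is filled.

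Scaled to the length of the most counted transcript, the RNA-seq levels can be set roughly against each other between genes. The scaling does not correct for reads that the Stat5a and Stat5b transcripts share, so close ranks that involve either gene are uncertain. In TFH CXCR5hi cells Stat5b stood at 68.5 CPM per kilobase, followed by Stat6 at 64.0, Stat3 at 56.5, Stat5a at 54.5, Stat4 at 46.5 and Stat2 at 20.1 CPM per kilobase. In TH2 cells Stat6, Stat5b and Stat4 lay close together at 37.6, 36.2 and 35.2 CPM per kilobase, above Stat3 at 31.0, Stat5a at 22.4 and Stat2 at 11.7. In naive cells Stat6 led at 89.5 CPM per kilobase, with Stat5b at 53.1, Stat3 at 35.5, Stat5a at 31.1, Stat4 at 21.8 and Stat2 at 17.3. Stat2 was thus the lowest in all 3 groups, and Stat4 stood under Stat3 and Stat5a in TFH and naive cells. In TH2 cells the mean of Stat4 was above both, but its order against Stat3 differed between the libraries. Stat4 and Stat3 were at 37.57 and 28.31 CPM per kilobase in TH2 replicate 1, and at 32.72 and 33.59 in TH2 replicate 2. Summed over the 6 genes, transcripts made up 1359 and 1360 CPM of TFH CXCR5hi libraries, against 707 and 798 CPM of TH2 and 1095 and 1063 CPM of naive libraries.

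**Figure D3:**
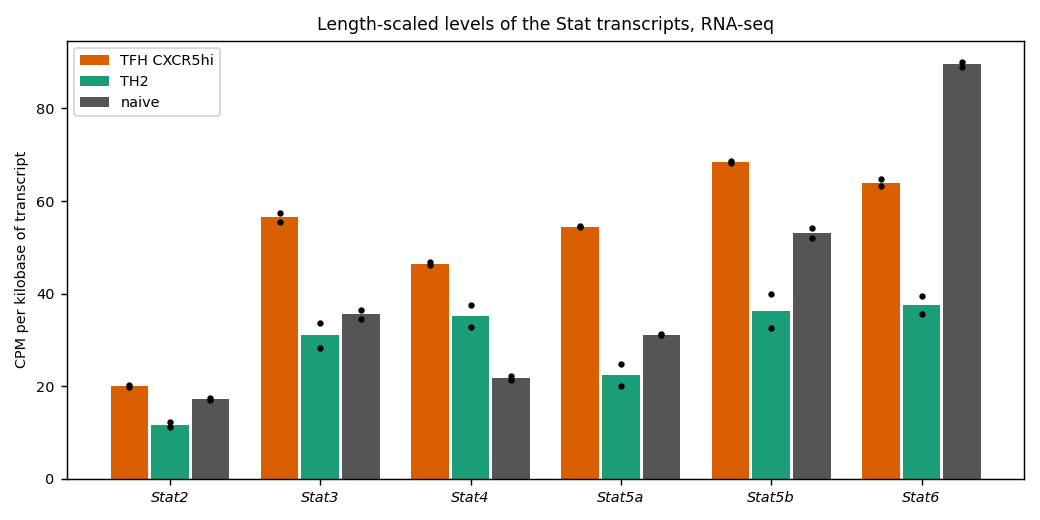
RNA-seq level of each Stat transcript in CPM per kilobase of transcript (vertical axis), as group means (bars) with the libraries (dots), for TFH CXCR5hi, TH2 and naive cells. Stat6 in naive cells is the tallest bar and Stat2 the shortest in each group.

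The genes around the family were read from lists of known members, which were chosen with earlier results of these data known. Their counts describe these lists and are not a test of STAT activity. Of the 4 Janus kinases, Jak2 was 552 ± 3.16 CPM in TFH CXCR5hi and 165 ± 5.78 CPM in TH2 cells (SD, n = 2 each; log2 1.71 ± 0.08, adjusted p = 5.53e-09). Tyk2, which serves interferon and IL-12 receptors, was higher as well (log2 1.02 ± 0.08, adjusted p = 7.91e-07), and Jak1 and Jak3 were not called. Against naive cells, Jak2, Jak3 and Tyk2 were higher in TFH cells and Jak1 lower, while in TH2 cells Jak2 and Jak3 were higher and Jak1 and Tyk2 lower.

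Of 18 cytokine receptor chains, 9 were higher and 7 lower in TFH CXCR5hi than TH2 cells in RNA-seq. Il6st, the shared chain of the IL-6 receptor, was 540 ± 6.78 CPM in TFH and 24.4 ± 0.50 CPM in TH2 cells (log2 4.43 ± 0.08, adjusted p = 1.02e-11). Il2ra, the high-affinity chain for IL-2, was 2.68 ± 0.86 CPM in TFH and 378 ± 3.36 CPM in TH2 cells (log2 -7.22 ± 0.14, adjusted p = 1.02e-11). Il4ra, the IL-4 receptor chain that recruits Stat6, was 38.8 ± 1.88 CPM in TFH and 1301 ± 112 CPM in TH2 cells (log2 -5.10 ± 0.10, adjusted p = 1.02e-11). Of the other chains, Il6ra and Il2rb were higher in TFH cells as well and Il7r lower, these 3 named after their values were seen. The list's median log2 ratio was 0.44, or 0.15 with Il13ra1, at 5 counts in TFH and 0 in TH2 libraries, set to 0.

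Of 16 inhibitors of the pathway, 10 were higher and 5 lower in TFH than TH2 cells, with a median log2 ratio of 0.42. Ptpn11, a phosphatase, was 651 ± 4.58 CPM in TFH and 80.4 ± 6.11 CPM in TH2 cells (log2 2.98 ± 0.08, adjusted p = 7e-11). Cish and Socs2, which Stat5 is known to induce, were lower in TFH cells by log2 ratios of -5.10 ± 0.11 (adjusted p = 1.94e-11) and -9.15 ± 0.20 (adjusted p = 2.06e-11). Socs2 had few counts in TFH cells, at 0.12 ± 0.09 CPM against 74.3 ± 0.66 CPM in TH2 cells, so the size of its ratio is uncertain. Ptpn2, Socs4 and Pias1 made up the rest of the lower set, and these 3 were named after their values were seen.

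Known targets of the single STATs were then counted. Of 12 interferon targets of the Stat2 complex, 11 were higher in TFH CXCR5hi than TH2 cells and 1, Bst2, was lower, named after its value was seen. Their median log2 ratio was 2.61. Isg15 had 73.5 ± 1.70 CPM in TFH and 2.68 ± 0.004 CPM in TH2 cells (log2 4.74 ± 0.10, adjusted p = 1.88e-11), and Oas1a and Ifit3 followed with log2 ratios of 3.44 ± 0.13 (adjusted p = 1.11e-09) and 5.90 ± 0.23 (adjusted p = 1.26e-09). Ifit3 had few counts in TH2 cells, at 0.21 ± 0.04 CPM against 13.3 ± 0.24 CPM in TFH cells, so the size of its ratio is uncertain. Against naive cells, 8 were higher and 2 lower in TFH cells, and 2 were higher and 9 lower in TH2 cells. Of 10 Stat3 targets, 9 were higher in TFH than TH2 cells and 1, Batf, was lower, with a median of 2.43. Il21 had 194 ± 5.72 CPM in TFH and 0.17 ± 0.07 CPM in TH2 cells (adjusted p = 3.56e-12), and Bcl6, the repressor that defines TFH cells, had 399 ± 2.23 CPM in TFH and 7.16 ± 0.65 CPM in TH2 cells (adjusted p = 3.96e-12). Batf was named after its value was seen.

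Of 8 Stat4 targets, 4 were higher and 4 lower in TFH than TH2 cells, with a median log2 ratio of -0.69. Tbx21, the TH1 regulator, had 6.90 ± 0.56 CPM in TFH and 0.25 ± 0.16 CPM in TH2 cells. The sum of the 6 CD8 and NK cell markers was higher in TFH cells too, at 75.6 and 79.9 CPM in TFH and 23.0 and 24.3 CPM in TH2 libraries. Most of the TFH sum was Klrb1c, at 47.1 to 51.2 CPM in TFH libraries and 0 in TH2 libraries. Cd8b1 was at 17.4 to 17.7 CPM in TFH and 10.5 to 11.7 CPM in TH2 libraries, and Eomes at 10.5 to 10.9 and 12.2 CPM. Cd8a, Ncr1 and Klrk1 were each at most 0.4 CPM in both groups, and the part of such cells was not tested. Il18rap had 1.61 ± 0.01 CPM in TFH and 42.1 ± 2.65 CPM in TH2 cells. Of 8 Stat5 targets, 2 were higher and 6 lower, with a median of -3.93. The higher ones were Il2rb and Pim1, named after their values were seen, and the lower ones were led by Il2ra, Cish and Socs2. Of 6 Stat6 targets, 1 was higher, Il4, named after its value was seen, and 4 were lower, with a median of -3.48. Ccr8 had 1.83 ± 0.45 CPM in TFH and 186 ± 1.09 CPM in TH2 cells (log2 -6.66 ± 0.12, adjusted p = 1e-11). Il24 had 0 counts in both TFH libraries and 23.1 ± 3.02 CPM in TH2 cells, at least 174-fold lower in TFH cells with 3 counts put in each empty library. Between TH2 and naive cells, 7 of 8 Stat5 targets and 6 of 6 Stat6 targets were higher in TH2 cells and 0 lower, with medians of 2.28 and 4.99. Several genes stand in 2 or more lists, among them Il2ra, Il2rb, Il4ra, Il6ra, Cish, Socs1, Socs2, Socs3, Usp18 and Pim1. Of the Stat3 targets, Bcl6 and Il21 are also TFH markers here. Of the Stat6 targets, Gata3, Il4 and Il4ra are also TH2 markers. Calls of these genes between TFH and TH2 cells are therefore not separate from the cell types compared.

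**Figure D4:**
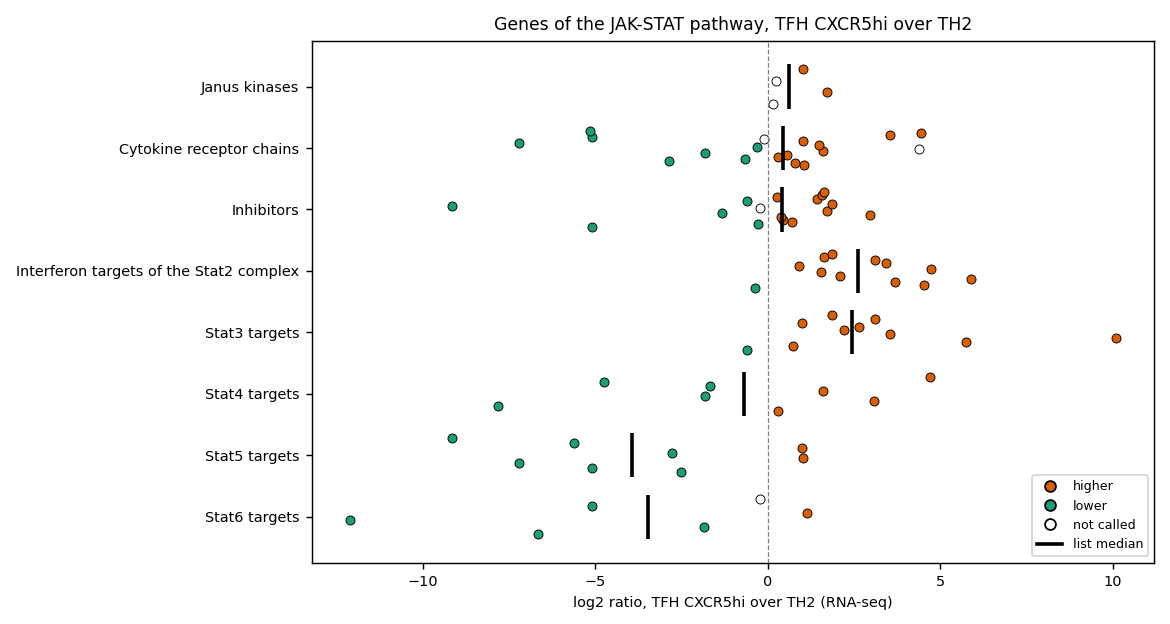
Log2 ratio of TFH CXCR5hi over TH2 cells in RNA-seq (horizontal axis) for the genes of 8 pathway lists (rows), coloured by the call, with a bar at each list's median. Interferon and Stat3 targets lie mostly right of 0 and Stat5 and Stat6 targets mostly left; the points of Il24 and Hlx, at 0 counts in TFH cells, and Il13ra1, at 0 counts in TH2 cells, are fitted values and not bounds.

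In QuantSeq, the question is how the family differs over CXCR5 gates, between TFH2, TFH and TH2 cells, and between Bcl6KO or Il4KO and TH2 cells. None of the 6 genes was called in any of 9 comparisons by edgeR. At an unadjusted p under 0.05 the count was 1 for TFH CXCR5hi against TH2 cells (Stat5b), 1 for Il4KO against TH2 cells (Stat4) and 0 in the other 7, and DESeq2 called 0 of 6 in all 9. Few genes were called at all: 3.51% for TFH CXCR5hi (2.05% higher and 1.46% lower), 2.22% for TFH CXCR5lo and 2.94% for TFH2 CXCR5hi against TH2 cells, and 0.647% for TFH2 against TFH over the 3 gates (0.327% higher and 0.32% lower). The share was 0.139% for TFH CXCR5hi against CXCR5lo, 0.153% for the same gates of TFH2 cells, 0.0139% for the difference of these gate effects, 0.0209% for Bcl6KO and 0.0695% for Il4KO against TH2 cells. The standard errors of the 6 genes' log2 ratios ran from 0.19 to 1.77, and from 0.27 to 1.04 for TFH CXCR5hi over TH2 cells, the comparison that both kits hold. There Stat3 had a log2 ratio of 0.11 ± 0.27 in QuantSeq and 0.83 ± 0.09 in RNA-seq. The difference between kits, whose TH2 cells also differ in genotype, was not tested. Donor sex differed between kits as well. TFH CXCR5hi libraries held 214 to 491 CPM of Xist in QuantSeq and 81.5 and 86.3 CPM of Ddx3y in RNA-seq. TH2 libraries held Xist in RNA-seq, and some held Xist and others Ddx3y in QuantSeq. For every gene in QuantSeq, each group overlapped the next one in the order of group means.

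**Figure D5:**
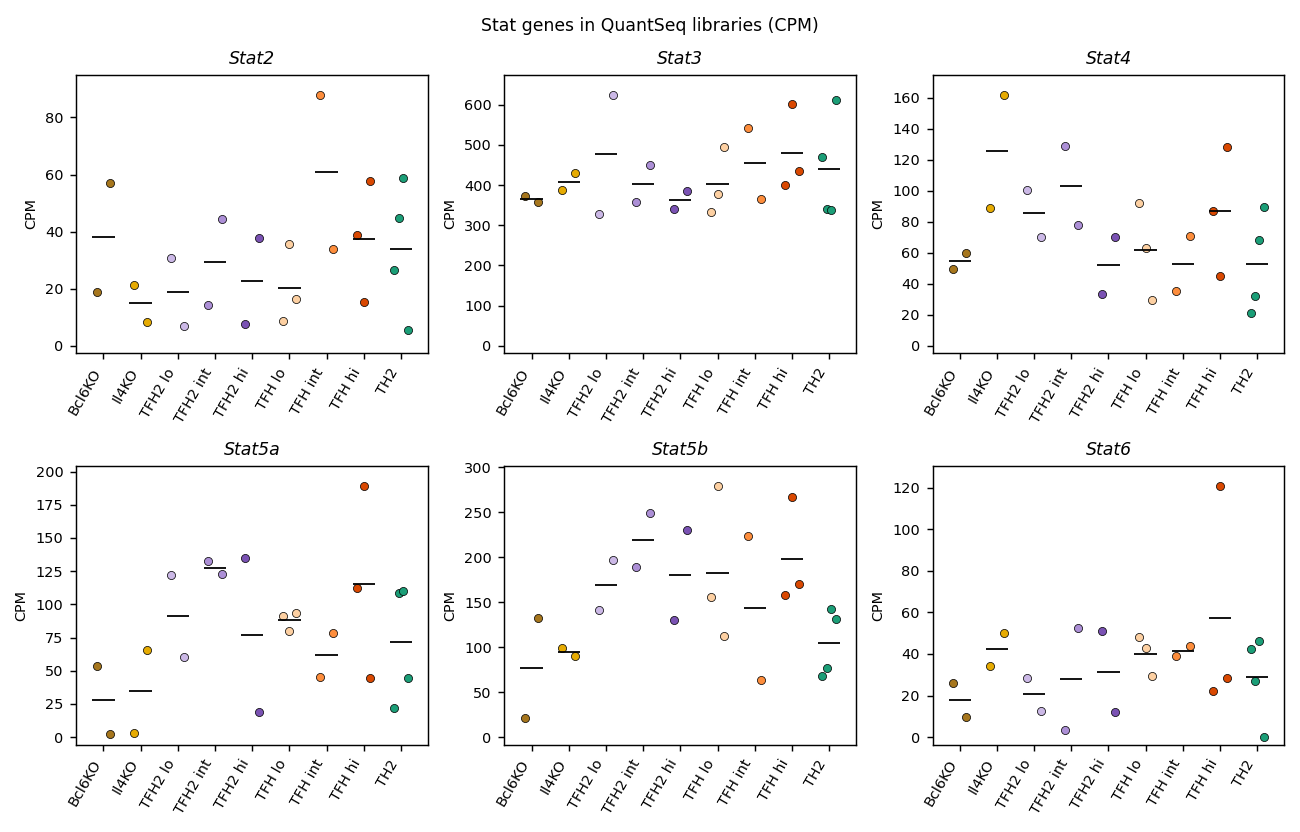
CPM of each Stat gene (vertical axes) in each of 22 QuantSeq libraries (points) by group (horizontal axes), with bars at group means. Libraries of a group spread widely except for Stat3, and the TFH and TFH2 points of Stat5b lie mostly above those of TH2, Bcl6KO and Il4KO cells.

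Stat5b came nearest to a difference. It had 158, 267 and 171 CPM in TFH CXCR5hi libraries, against 68.2, 76.6, 142 and 131 CPM in TH2 libraries. The groups did not overlap, as was so in that direction for 6.93% of all genes. The log2 ratio was 0.91 ± 0.42 (unadjusted p = 0.0356, adjusted p = 0.306), and the adjusted p ran from 0.0882 to 0.588 over 13 alternatives. TFH CXCR5lo libraries had 156, 279 and 112 CPM (log2 0.81 ± 0.42 over TH2, adjusted p = 0.391), and TFH CXCR5int libraries had 224 and 63.2 CPM. TFH2 libraries had 141 and 197 CPM at CXCR5lo, 189 and 249 CPM at CXCR5int and 130 and 230.4 CPM at CXCR5hi. Of these groups, TFH2 CXCR5hi was tested against TH2 cells (log2 0.74 ± 0.47, adjusted p = 0.542). With the mean of the 3 gates in place of CXCR5hi, a setting chosen after seeing the data, the log2 ratio was 0.72 ± 0.36 for TFH (adjusted p = 0.25) and 0.79 ± 0.37 for TFH2 cells (adjusted p = 0.232). Donor sex moved with these values: TFH libraries held Xist, TFH2 libraries Ddx3y, TH2 replicates 1 and 2 Xist and TH2 replicates 3 and 4 Ddx3y. Against TH2 libraries of like sex, the log2 ratio was 1.445 ± 0.49 for TFH CXCR5hi (adjusted p = 0.0882), 1.34 ± 0.49 for TFH CXCR5lo (adjusted p = 0.174) and 0.38 ± 0.53 for TFH2 CXCR5hi cells (adjusted p = 0.885).

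Stat5a spread far more. It had 112, 189 and 44.6 CPM in TFH CXCR5hi, against 21.8, 109, 110.1 and 44.9 CPM in TH2 libraries, and these groups overlapped (log2 0.67 ± 0.96, adjusted p = 0.886). TFH libraries had 91.2, 79.7 and 93.1 CPM at CXCR5lo and 44.99 and 78.6 CPM at CXCR5int. TFH2 libraries had 122 and 59.96 CPM at CXCR5lo, 132 and 123 CPM at CXCR5int and 135 and 19.1 CPM at CXCR5hi. In Bcl6KO cells it had 53.8 and 1.96 CPM, with 4 counts in replicate 2. The Bcl6KO over TH2 log2 ratio was -1.36 ± 1.18 (adjusted p = 0.934), and without Bcl6KO replicate 1 it was -5.22 and passed (adjusted p = 0.00853), so that call rests on the library with 4 counts. In Il4KO cells it had 3.45 and 65.6 CPM (log2 -0.99 ± 1.16 over TH2, adjusted p = 1).

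Stat3 had the smallest spread of the 6 genes, 329.3 to 625.2 CPM over the 22 libraries with a coefficient of variation of 22.3%. It had 401, 603 and 434 CPM in TFH CXCR5hi, against 470.3, 339, 337.5 and 612 CPM in TH2 libraries. Its log2 ratio was 0.11 ± 0.27 there (adjusted p = 0.973) and -0.31 ± 0.31 for TFH2 CXCR5hi over TH2 cells (adjusted p = 0.77). TFH2 and TFH cells over the 3 gates had 415 ± 112 (SD, n = 6) and 444 ± 94.5 CPM (n = 8; log2 -0.16 ± 0.19, adjusted p = 1). With Bcl6KO at 374 and 357 CPM and Il4KO at 387 and 431 CPM, all libraries of these groups lay inside the TH2 range. Other genes of the IL-6 pathway were called. Socs3 was lower in TFH2 than TFH cells (188 ± 27.9 against 451 ± 77.75 CPM, log2 -1.29 ± 0.23, adjusted p = 0.00013), and Il6st was higher in TFH CXCR5lo than TH2 cells (177 ± 16.2 against 17.8 ± 17.0 CPM, log2 3.30 ± 0.73, adjusted p = 0.0049).

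Stat4 had 87.1, 44.8 and 128 CPM in TFH CXCR5hi, against 21.1, 32.0, 68.0 and 89.7 CPM in TH2 libraries (log2 0.72 ± 0.58, adjusted p = 0.61). Against TH2 replicates 1 and 2 alone, which match TFH libraries in donor sex, the ratio was 1.71 ± 0.73 (adjusted p = 0.277). Il4KO cells had 89.0 and 162 CPM, the lower of them inside the TH2 range, and the log2 ratio over TH2 cells was 1.32 ± 0.64 (unadjusted p = 0.0395, adjusted p = 0.921). Both Il4KO libraries held Ddx3y, as did TH2 replicates 3 and 4, and against those 2 alone the ratio was 0.73 ± 0.76. Bcl6KO cells had 49.7 and 60.1 CPM. The TFH2 over TFH difference was 0.19 ± 0.41 on the log2 scale (adjusted p = 1), at 80.3 ± 32.2 CPM (n = 6) and 68.9 ± 33.2 CPM (n = 8).

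Stat6 had 22.2, 121 and 28.5 CPM in TFH CXCR5hi, against 42.5, 27.0, 46.1 and 0 CPM in TH2 libraries. The 0 was TH2 replicate 4, where 3 counts, the most that a count of 0 allows, would be 1.62 CPM. TFH2 cells had 26.7 ± 21.1 CPM (n = 6) and TFH cells 46.9 ± 31.2 CPM (n = 8) over the 3 gates, a log2 ratio of -0.83 ± 0.71 (adjusted p = 0.921). Bcl6KO cells had 25.9 and 9.77 CPM and Il4KO cells 34.2 and 50.3 CPM. Il4ra, the receptor chain before Stat6, was called in QuantSeq too, at 122 ± 70.3 CPM in TFH CXCR5hi and 1766 ± 350.1 CPM in TH2 cells (log2 -3.86 ± 0.49, adjusted p = 0.000124).

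Stat2 ran from 5.41 to 88.0 CPM over the 22 libraries, with a coefficient of variation of 69.8%. It had 39.0, 15.3 and 57.8 CPM in TFH CXCR5hi, against 26.5, 44.9, 58.7 and 5.41 CPM in TH2 libraries (log2 0.13 ± 1.04, adjusted p = 1). Bcl6KO cells had 18.9 and 57.2 CPM and Il4KO cells 21.2 and 8.49 CPM. TFH2 and TFH cells over the 3 gates had 23.6 ± 16.2 (n = 6) and 36.9 ± 26.0 CPM (n = 8; log2 -0.68 ± 0.75, adjusted p = 1). Of the 12 interferon targets, 4 were higher and 0 lower in TFH CXCR5hi than TH2 cells, namely Ifit3, Zbp1, Irf7 and Ifit1, the last named after its value was seen. Ifit3 had 108 ± 31.4 CPM in TFH and 1.19 ± 2.14 CPM in TH2 cells (adjusted p = 0.000313). In TFH2 cells 3 of the 12 were lower than in TFH cells and 0 higher. Irf7 had 26.2 ± 17.1 CPM in TFH2 and 142 ± 27.5 CPM in TFH cells (log2 -2.70 ± 0.50, adjusted p = 0.000243), Ifit3 had 19.5 ± 12.4 and 134 ± 47.1 CPM (adjusted p = 0.04), and Ifi44 had 0 counts in all TFH2 libraries, at least 19.7-fold lower with 3 counts put in each. Sex-linked transcripts and the myeloid, erythroid and B cell sums given above moved with the TFH2 and TFH groups, and their part in these differences was not tested.

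Across the gates, the log2 ratios of CXCR5hi over CXCR5lo were 0.10 to 0.87 in TFH cells and -0.68 to 0.67 in TFH2 cells, with standard errors of 0.29 to 1.12 and 0.36 to 1.37. The difference between these gate effects was -1.18 to 0.18, with standard errors of 0.46 to 1.77. The targeted genes check neither knockout label. TH2 libraries held few counts of them, at most 39 of Bcl6 and 40 of Il4. Where the 3' tags lie against the deleted parts was not examined. Bcl6 was at 6.73 and 26.4 CPM in Bcl6KO libraries, against 0.39, 13.2, 1.99 and 5.95 CPM in TH2 libraries. Il4 was at 0 and 0.98 CPM in Il4KO libraries, against 0, 0, 13.3 and 0 CPM in TH2 libraries. Of all the listed genes, Il21 was the one called against TH2 cells in either knockout, with 33 counts in Il4KO replicate 1, 0 in Il4KO replicate 2 and 0 in all 4 TH2 libraries. That call rests on 1 library, and without it both groups are at 0.

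Likeness to other genes was read as Pearson's r of log2(CPM + 1) over the 22 QuantSeq libraries, among 3202 genes with a mean of at least 50 CPM, as a description without a test. The libraries share groups and depth, so r also follows these. The genes most like Stat5b were Casp4 (r = 0.794), Mrps6 (0.779) and Slamf6 (0.775), and those most like Stat5a were Chd1 (0.805), Kif5b (0.793) and Cic (0.749). Stat6 was most like Supt4a (0.791), Dnajb1 (0.788) and Dpp4 (0.739), and Stat3 most like Ikzf5 (0.697), Tatdn2 (0.665) and Rsbn1 (0.591). Stat2 was most like Mob1a (0.679), Vdac1 (0.638) and Crtc3 (0.624), and Stat4 most like Hnrnpa3 (0.594), Psmc6 (0.559) and Rbm17 (0.557). Between members r ran from -0.282 to 0.272, and it was 0.162 between Stat5a and Stat5b.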

How the data were processed

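The labels name 30 libraries of 10 ng total RNA each, 22 made with the Lexogen QuantSeq kit and 8 with NEB Next Ultra. The deposited files hold whole counts, per gene for QuantSeq and per transcript for RNA-seq, used as the authors deposited them. STAR 2.7.0c, Bowtie 0.12.2 and featureCounts 1.6.0 appear in the submitters' processing notes beside the builds mm9, mm10 and GRCm38.p6; no source used here ties a tool or build to a file.

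Names came from GENCODE M21. Of 55573 QuantSeq identifiers 93 had no name. Of 95883 RNA-seq transcripts 82946 were named, and the others, with 14.661% of counts, were left out. Each RNA-seq gene was represented by its transcript of highest total count. The test was edgeR 4.0.16 (R 4.3.3) with TMM factors, filterByExpr at a count of 10 and a total of 15, and robust quasi-likelihood fits of all libraries of a kit (9 and 5 groups, 13 and 3 residual degrees of freedom). It was 2-sided, with Benjamini-Hochberg adjustment over all genes and no covariate in the 12 comparisons. The standard error of an edgeR log2 ratio was derived as its absolute value over the square root of the test's F statistic. It was not fitted directly, and can be too small where a group held few counts. Alternatives were DESeq2 1.42.0, no filter, library size alone, only the groups compared, transcripts summed, each library left out, the mean of 3 gates (chosen after seeing the data) and TH2 libraries of like sex. Replicates of a group differed by a chi-square per degree of freedom of 33.2 to 53.0 in QuantSeq and 2.56 to 19.9 in RNA-seq, above sampling noise, so none was counted as a duplicate. Promoter windows were aligned with Biopython 1.88. The members and the gene lists were chosen with earlier results of these data known. Genes named besides the 6 were, per list and comparison, up to 3 of the smallest adjusted p under 0.05, and per member the 3 of highest correlation. Floors of 3 counts cover counting error only.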

Additional observations from a re-analysis of the deposited data

How the results depend on the processing

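In RNA-seq no member's ratio changed direction under any alternative run, and the calls that were lost or gained are given beside Stat2, Stat3 and Stat5b. QuantSeq called 0 of 6 members in each comparison under each alternative, except Bcl6KO against TH2 cells, where the count was 0 to 1 with 1 library left out, the 1 being Stat5a (log2 ratio -5.22) without Bcl6KO replicate 1. Several QuantSeq ratios, none of them called, changed sign. With the mean of 3 gates, TFH2 over TH2 was 0.50 for Stat4 and -0.20 for Stat6. With TH2 libraries of like sex, TFH2 CXCR5hi over TH2 was -0.011 for Stat5a and Bcl6KO over TH2 was 0.040 for Stat5b. With library size alone, the difference of gate effects was -0.031 for Stat5b. Leaving out 1 library at a time gave these log2 ranges. For TFH CXCR5hi over TH2 cells the ranges were Stat2 -0.34 to 0.54, Stat3 -0.067 to 0.31 and Stat6 -0.19 to 1.33. For TFH CXCR5lo over TH2 cells the ranges were Stat3 -0.30 to 0.072, Stat4 -0.16 to 0.59 and Stat5a -0.0044 to 0.58. For TFH2 CXCR5hi over TH2 cells the ranges were Stat2 -2.15 to 0.063, Stat4 -0.67 to 0.35, Stat5a -1.99 to 0.90 and Stat6 -1.35 to 0.79. For TFH2 over TFH cells the ranges were Stat4 -0.014 to 0.36, Stat5a -0.54 to 0.41 and Stat5b -0.16 to 0.47. For CXCR5hi over CXCR5lo TFH cells the ranges were Stat5a -0.16 to 0.76, Stat5b -0.15 to 0.56 and Stat6 -0.66 to 0.87. For CXCR5hi over CXCR5lo TFH2 cells the ranges were Stat2 -1.23 to 1.75, Stat3 -0.70 to 0.20, Stat5a -2.23 to 0.64, Stat5b -0.28 to 0.48 and Stat6 -0.74 to 1.42. For the difference of gate effects the ranges were Stat2 -2.08 to 0.90, Stat5a -2.60 to 0.28, Stat5b -0.42 to 0.38 and Stat6 -1.22 to 1.36. For Bcl6KO over TH2 cells the ranges were Stat2 -0.88 to 0.70, Stat4 -0.24 to 0.39 and Stat5b -2.28 to 0.29. For Il4KO over TH2 cells the ranges were Stat3 -0.16 to 0.17 and Stat5b -0.25 to 0.099. The cause of these changes was not tested.

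Over all genes, edgeR called 505, 320 and 423 genes for TFH CXCR5hi, TFH CXCR5lo and TFH2 CXCR5hi against TH2 cells, where DESeq2 called 935, 651 and 810. For TFH2 against TFH the counts were 93 with edgeR, 274 with DESeq2, 142 without the filter and 80 to 214 with 1 library left out. For CXCR5hi against CXCR5lo they were 20, 83, 33 and 13 to 29 in TFH cells and 22, 127, 36 and 21 to 111 in TFH2 cells, and 2, 35, 4 and 1 to 43 for the difference of gate effects. For Bcl6KO they were 3, 126, 17 and 7 to 56, and for Il4KO 10, 83, 38 and 10 to 31. Only the groups compared gave 7 and 0 genes for the TFH and TFH2 gates, 1 for Bcl6KO and 0 for Il4KO. TH2 libraries of like sex gave 63 for Bcl6KO and 33 for Il4KO. Among the counts with 1 library left out, the highest came without TFH2 CXCR5lo replicate 1 (214, 111 and 43) and without Bcl6KO replicate 1 (56). With 1 library left out, TFH CXCR5hi against TH2 cells gave 336 to 463 genes, the lowest without TFH CXCR5hi replicate 2. Library size alone turned the split of TFH2 against TFH, 47 higher and 46 lower, into 59 and 33. DESeq2 turned 295 higher and 210 lower into 457 and 478 for TFH CXCR5hi, 222 higher and 98 lower into 361 and 290 for TFH CXCR5lo, and 244 and 179 into 371 and 439 for TFH2 CXCR5hi against TH2 cells. No paired analysis was possible because the labels give neither replicate numbers nor shared animals. Stat2 and Stat6 had the lowest QuantSeq medians of the 6 genes, at 28.6 and 31.7 CPM.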

Other observations

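Counts of the other annotated transcripts entered only the alternative with transcripts summed. That alternative counts a read again for each transcript it was placed on. In every RNA-seq library Stat2-201 and Stat2-202 differed by at most 1 count, and so did Stat5a-201 and Stat5a-202, so the deposited counts place the same reads on several transcripts, and isoform levels cannot be read from them. Stat3-201 held 72.9 and 73.3% of the counts of Stat3-202 in TFH CXCR5hi, 70.2 and 71.6% in TH2 and 70.6 and 71.6% in naive libraries. The libraries labelled TFH2 CXCR5hi and TH2 of the IL-4BacTg x OTII Tg cross held 59.4 and 53.7%. Stat5a-207 had 2918 and 2032 counts in TFH CXCR5hi libraries, where Stat5a-202 had 5592 and 3908, a lower share than in any TH2 or naive library. Its share of Stat5a-202 was 57.2 and 60.9% in TH2 and 59.5 and 60.4% in naive libraries, against 34.5 and 37.1% in the libraries labelled TFH2 CXCR5hi and TH2 of the cross. For Stat5b-203 against Stat5b-201 they were 16.9 to 18.2% in the 6 replicated libraries and 9.62 and 9.25% in the same 2 single libraries. Stat6-202 held 10.2 and 9.26% of the counts of Stat6-201 in the libraries labelled TFH2 CXCR5hi and TH2 of the cross, and 13.7 to 14.5% in the 6 replicated libraries. These single libraries lie outside the range of the others for these transcripts of Stat3, Stat5a, Stat5b and Stat6, and the cause was not tested.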
